A study of Mus musculus with 8 samples.

Results

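The response of the mouse large bowel to social isolation was examined on the 4 wild-type (WT) arrays of a series of 8, as stress minus control in the middle colon and stress minus control in the rectum. The other 4 arrays carry the same tissues and treatments from mice without interleukin-18 (IL18ko) and served only for comparison. Each array held RNA from the mucosa, pooled in equal parts from 5 mice, and each group had 1 array. The mice were brothers that shared a cage of 5 from weaning to 10 to 12 weeks of age. From each cage 2 mice were killed as controls and 3 were moved to single cages, and the RNA of the controls was prepared before isolation began. Stress therefore cannot be told apart from the later date and the greater age at which the isolated mice were killed. The series text gives 8 days of isolation and the treatment protocol gives 16 days, and the difference is not settled here. All mice were killed at 10:00 AM under ether. Colon was taken 2.5 to 3.5 cm from the ileocecum and rectum within 7 mm of the anus, so rectal samples lay next to the sphincter muscle and glands of the anal region. The labels give no strain and do not say whether the same mice gave the tissue of both pools.

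The mucosa of the large bowel is a sheet of absorptive, goblet and endocrine cells renewed from crypt stem cells, over a stroma of fibroblasts, vessels, immune cells and a thin layer of smooth muscle. Stress acts on it through glucocorticoids, which induce genes such as Fkbp5, Tsc22d3 and Per1, and through nerves, mast cells and locally made corticotropin-releasing factors. Interleukin-18 is a cytokine of the epithelium that is cut to its active form by inflammasome caspases. Skeletal muscle is no part of the mucosa, but forms the external anal sphincter close to the rectal sampling site.

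RNA was labelled with Cy3 and hybridised to Agilent whole mouse genome arrays. A level here is log2 of the scanner's background-subtracted signal minus the array's own 75th percentile of that signal, so that 0 is the level of a fairly bright probe and -6 lies near background. A gene was represented by its brightest probe over the arrays compared, chosen before any background call. It was counted as measured in a tissue when that probe was called well above background on both arrays of the pair. The share of spots well above background ran from 62.2% to 66.4% per array, and saturated spots were absent. The 4 arrays from IL18ko mice had no Il18 signal above background (levels -8.01 to -7.62), which fits their labels. With 1 pool per group there is no replicate, so no difference within a tissue has a test, and a 2-fold difference (1 on the log2 scale) was a threshold of size only. The scanner's own spot errors give a median error of 0.20 for a difference, which covers neither pooling nor labelling. Only a fit over both tissues could be tested, with the tissues standing in as 2 replicates of stress.

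Fewer genes differed in the colon than in the rectum. In the colon 12418 genes were measured and 134 of them (1.08%) differed 2-fold or more, 49 higher under stress (0.395%) and 85 lower (0.684%). In the rectum 12162 genes were measured and 447 (3.68%) differed, 285 higher (2.34%) and 162 lower (1.33%). The rectal balance depended on the values used, with 101 higher and 198 lower in the authors' deposited ratios to control colon, and 122 and 27 with the normexp background model, which draws dim signals together. The SD of the differences was 0.30 in the colon and 0.50 in the rectum, and 76.9% of the colon genes but 39.3% of the rectum genes lay within 0.25 of 0. Low levels supplied much of the count. Of the 2-fold genes, 111 of 134 in the colon and 223 of 447 in the rectum had a mean level under -2, and above it the colon kept 4 higher and 19 lower genes and the rectum 173 and 51.

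The rectal pair also stood apart in several measures. Its stress array correlated with the other rectal arrays at r 0.9816 to 0.9851 over probes. The WT stress colon array correlated with the other colon arrays at r 0.9884 to 0.9952. For 8257 of all 12162 rectal genes, and for 213 of the 285 higher and 123 of the 162 lower ones, the stress array lay farther than the control array from the mean of the IL18ko rectal arrays. In the colon the stress array was the farther one for 5876 of all 12418 genes, 40 of the 49 higher and 36 of the 85 lower. The median rectal difference went from -0.09 in genes below a level of -4 to 0.30 in genes above 4, and quantile normalization, which forces all arrays to one distribution, reduced these to -0.06 and 0.05. Where a gene had a pair of probes with levels of at least -2 (2375 genes), the differences of both probes correlated at r 0.571 in the colon and 0.359 in the rectum. Of 128 genes past 2-fold in the rectum that had a second measured probe, 83 had the same sign on it and 22 were also past 2-fold. The part of these features in the rectal differences was not tested, and the rectal pair has no value without that array. A second measured probe is therefore given below for the named genes that had one.

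**Figure D1:**
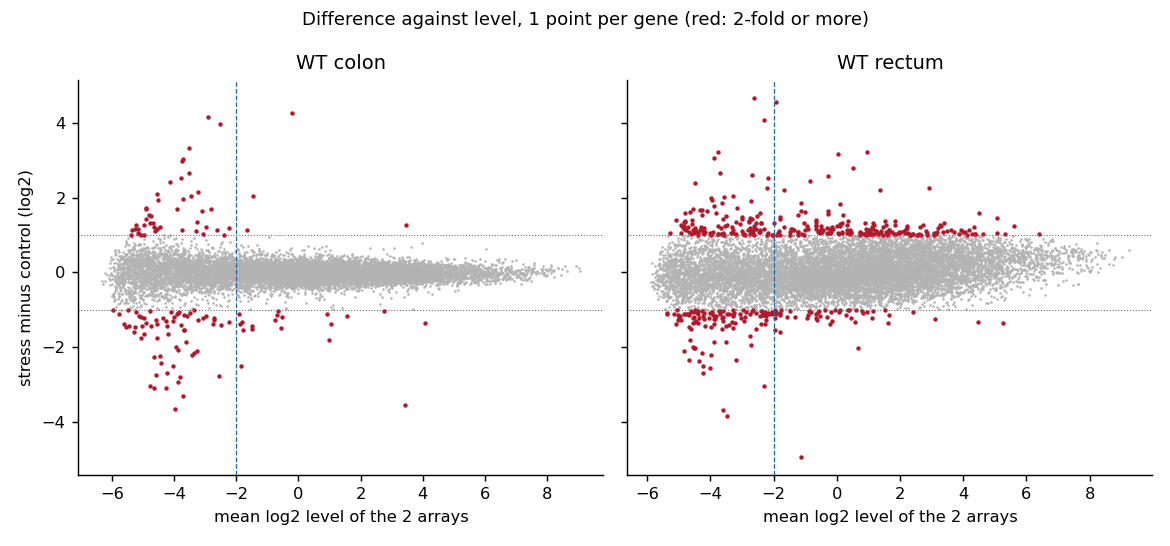
Stress minus control (log2) against the mean log2 level of both arrays of a pair, 1 point per gene, for WT colon (12418 genes) and WT rectum (12162 genes). Dotted lines mark 2-fold, the dashed line a level of -2, and red points the 134 and 447 genes past 2-fold. Colon points past 2-fold lie mostly left of the dashed line, whereas rectal points past 2-fold are more numerous at every level.

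The 2 tissues shared few differences. Of 11904 genes measured on all 4 arrays, 4842 (40.7%) had the same sign in both tissues, and the differences correlated at r -0.151 across genes, which are not independent replicates. Only 10 genes (0.084%) were past 2-fold the same way in both, 8 higher and 2 lower, and 8 genes (0.0672%) were past 2-fold in opposite ways. The 8 shared higher genes were Myh8, Tnnc2, Tnni2, Tcap, Pgam2, Actn3, Adam2 and Tfap2e, and the 2 shared lower genes were Wdr17 and Ggt1. The first 6 of the higher genes are genes of skeletal muscle.

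**Figure D2:**
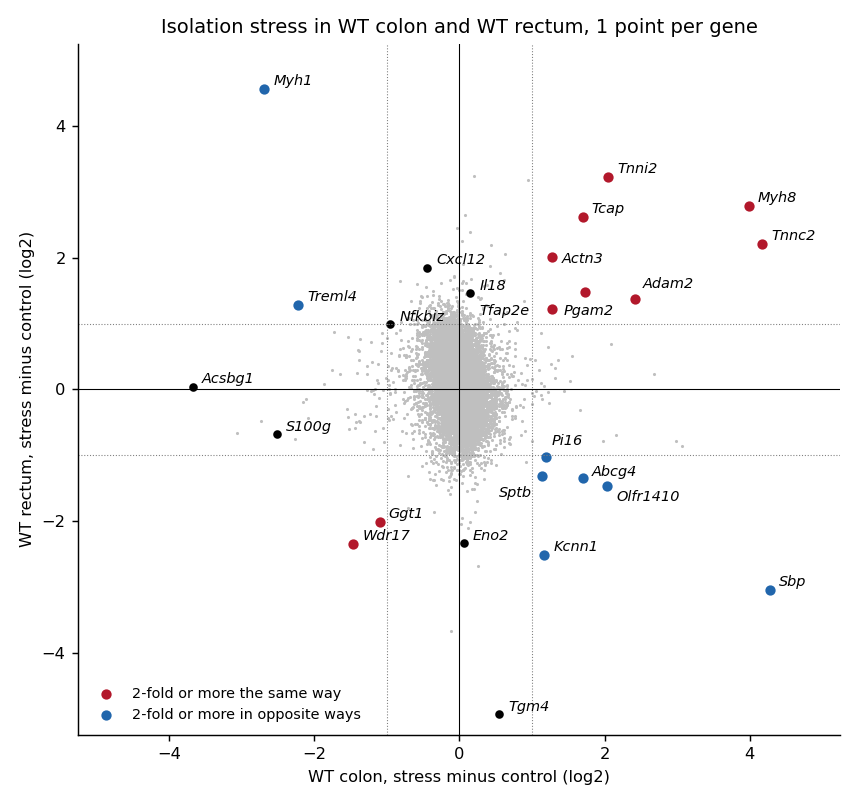
Stress minus control in WT rectum against stress minus control in WT colon (both log2), 1 grey point for each of 11904 genes measured on all 4 arrays, with the 10 genes past 2-fold the same way in red, the 8 past 2-fold in opposite ways in blue and 7 further genes of the text in black. The cloud is taller than it is wide, and the muscle genes Myh8, Tnnc2 and Tnni2 stand at its upper right.

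The muscle genes are shown first as regulatory sequence, because the shared genes include several of the kind switched on by MyoD-family factors through E-boxes. E-boxes were searched as the letters CAGCTG, and in a separate search as the letters CACCTG, whose other strand reads CAGGTG. The search covered both strands of the 200 bases before the start of each gene, in RefSeq promoters of build GRCm38.p6. Of 12 muscle genes looked up, 8 were in the table and 5 of those held a match in at least 1 promoter. Tnni2, Tcap, Actn3 and Myoz1 were not in the table. Tfap2e, a shared gene that is not of skeletal muscle, was also looked up and held CAGCTG at -186 and -151. Over all 32851 promoters of the table, 10.9% held CAGCTG, 13.9% held the second motif on either strand and 23.1% held either. These shares are per promoter and the muscle count is per gene, where Mb had 3 promoters, so they are not like for like. Matches are in capitals below, 5′ to 3′ on the gene's own strand, and describe letters only. Tnnc2 (chr2:164779735-164779934, minus strand) encodes the calcium sensor troponin C of fast muscle and had a match at position -183 from its start. Pgam2 (chr11:5803797-5803996, minus strand), the muscle form of a glycolytic mutase, had a pair of matches at -132 and -125. Myh4 (chr11:67237612-67237811, plus strand), the fast IIB myosin heavy chain, is not among the shared genes and had one at -67. Myh8 (chr11:67276924-67277123, plus strand), the perinatal myosin heavy chain, had none in this window.
Tnnc2: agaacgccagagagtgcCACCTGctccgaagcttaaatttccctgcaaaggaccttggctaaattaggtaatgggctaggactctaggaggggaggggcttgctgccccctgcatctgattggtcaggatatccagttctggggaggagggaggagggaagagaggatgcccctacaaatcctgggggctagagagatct
Pgam2: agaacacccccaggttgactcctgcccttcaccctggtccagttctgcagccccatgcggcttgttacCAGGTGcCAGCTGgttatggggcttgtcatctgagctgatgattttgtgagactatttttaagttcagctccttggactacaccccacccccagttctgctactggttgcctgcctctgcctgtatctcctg
Myh4: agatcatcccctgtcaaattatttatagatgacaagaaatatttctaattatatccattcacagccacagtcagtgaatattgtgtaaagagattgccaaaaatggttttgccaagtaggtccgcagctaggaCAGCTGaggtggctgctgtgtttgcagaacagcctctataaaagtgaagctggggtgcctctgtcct
Myh8: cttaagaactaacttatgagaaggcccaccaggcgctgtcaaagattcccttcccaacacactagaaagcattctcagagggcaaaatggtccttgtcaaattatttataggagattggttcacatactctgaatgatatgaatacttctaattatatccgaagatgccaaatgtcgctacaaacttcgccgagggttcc

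Myh8 was at -4.50 in control colon and -0.52 in stressed colon, a difference of 3.99 (15.9-fold), and at -0.90 and 1.89 in the rectum, a difference of 2.79 (6.91-fold). Tnnc2 was at -4.98 and -0.81 in the colon (4.17, 18.0-fold) and at 0.25 and 2.46 in the rectum (2.21, 4.64-fold). Tnni2, the inhibitory subunit of the same fast troponin complex, was at -2.48 and -0.44 in the colon (2.05) and at -0.65 and 2.58 in the rectum (3.23). All 3 were higher on the stress array of both tissues, and all 3 were higher in the rectum than in the colon of the same treatment. With normexp the colon differences shrank to 2.69 for Myh8, 2.50 for Tnnc2 and 1.71 for Tnni2, and the rectal ones were 2.53, 1.98 and 3.06. The other Myh8 probe was not measured in either pair. The remaining 3 genes were dim. Tcap, the titin cap of the sarcomere, was at -4.74 and -3.04 in the colon (1.70) and at -3.99 and -1.37 in the rectum (2.62). Pgam2 was at -5.76 and -4.03 in the colon (1.73) and at -3.75 and -2.27 in the rectum (1.48). Actn3, the Z-disc actinin of fast fibres, was at -5.87 and -4.59 in the colon (1.28) and at -4.97 and -2.96 in the rectum (2.01). With normexp these 3 gave 0.83, 0.57 and 0.40 in the colon and 1.68, 0.99 and 1.03 in the rectum.

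Other muscle genes were past 2-fold higher in the rectum with smaller, divided or no colon values. Mb, the oxygen store myoglobin, was at -4.96 in control and -0.28 in stressed rectum (4.69), and its control colon signal was not well above background. Myh4 was at -1.57 and 1.01 in the rectum (2.58, and 2.08 on another probe). In the colon Myh4 was well above background only under stress, at -0.27, at least 63.3-fold above the floor of the control array. A bound of this kind sets the bright array against the lowest signal called well above background on the dim array. Myl1, a myosin light chain, differed by 0.94 in the colon and 3.18 in the rectum. Myl3, another light chain, had a pair of probes that disagreed, with differences of 1.13 and 4.08 on one and 0.68 and 0.19 on the other, in colon and rectum. Not every muscle gene followed. Acta1, the skeletal alpha-actin, differed by 0.10 and -0.12, Ckm, the muscle creatine kinase, by -0.19 and -0.14, and Atp2a1, the calcium pump of the sarcoplasmic reticulum, by 0.22 and -0.12.

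Over a list of 21 skeletal muscle genes on the array, 15 were measured in the colon with a median of 0.10, 3 past 2-fold higher and 1 lower, and 17 in the rectum with a median of 2.01, 11 higher and 2 lower. The medians over all genes were 0.00 in the colon and 0.03 in the rectum. Over all measured genes 0.395% were past 2-fold higher and 0.684% lower in the colon, and 2.34% and 1.33% in the rectum. The mean level of the list was -3.50 in control colon, -2.37 in stressed colon, -2.41 in control rectum and -0.50 in stressed rectum. Control rectum thus lay close to stressed colon, and stressed rectum was the highest of the WT arrays. In IL18ko mice the list went the other way in the rectum, from a mean of 2.03 in control, the highest of all 8 arrays, to 0.30 under stress, and from -3.73 to -3.31 in the colon. Myh8 alone was at 5.63 in the IL18ko control rectum and 3.01 in the IL18ko stress rectum. In bulk tissue, a different share of muscle in the pieces taken and a different amount of RNA per cell cannot be told apart.

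**Figure D3:**
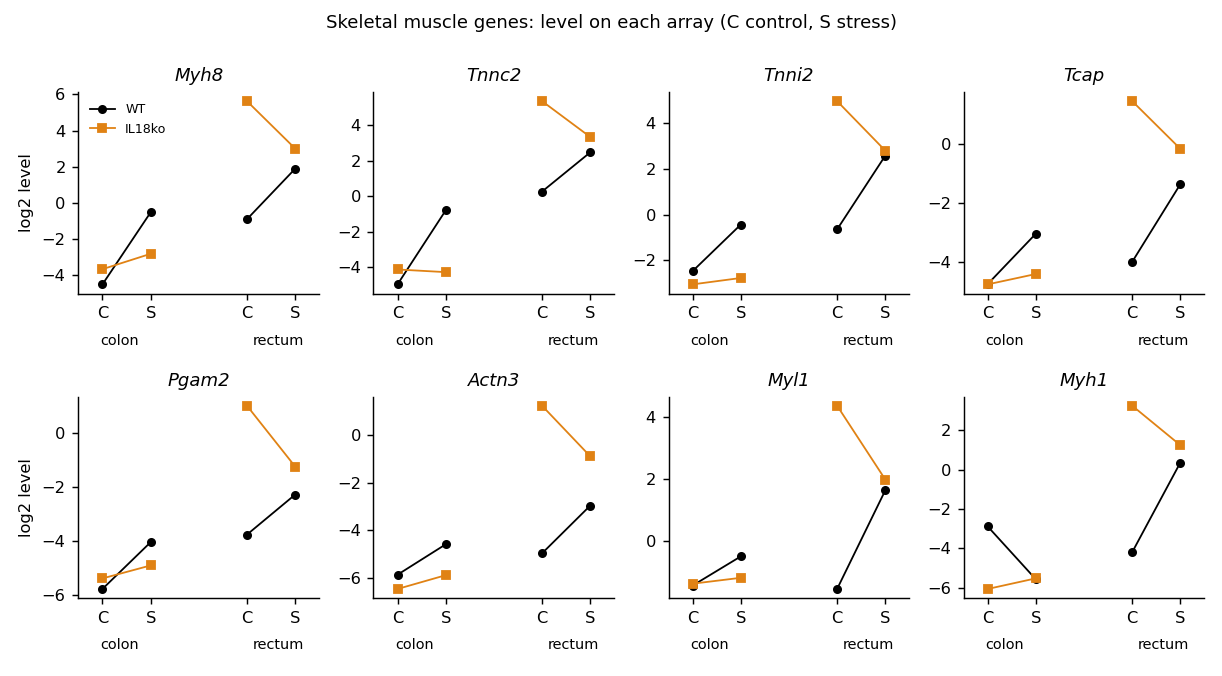
Log2 level of 8 skeletal muscle genes on each of the 8 arrays (C control, S stress; colon left and rectum right in each panel), 1 pool per point, WT as black circles and IL18ko as orange squares. WT lines climb in both tissues except for Myh1 in the colon, and the IL18ko rectal lines descend from the highest control level.

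Tfap2e was the brightest of the shared genes. It encodes AP-2 epsilon, a transcription factor, and was at 2.83 in control colon and 4.10 in stressed colon (1.27, 2.41-fold) and at 3.74 and 4.96 in the rectum (1.22, 2.33-fold). In IL18ko mice it was also higher under stress, at 3.29 and 4.34 in the colon (1.05) and at 3.49 and 4.05 in the rectum (0.56), so all 4 stress arrays lay above the control array beside them. Adam2, a sperm surface protein of the ADAM family, was dim, at -5.35 and -2.92 in the colon (2.42) and at -5.50 and -4.13 in the rectum (1.38). With normexp these were 1.06 and 0.48. In IL18ko mice Adam2 was not well above background in stressed colon and differed by -0.82 in the rectum.

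Both shared lower genes were dim. Wdr17, a WD-repeat protein, was at -4.53 and -6.00 in the colon (-1.46) and at -3.50 and -5.85 in the rectum (-2.35). Ggt1, the gamma-glutamyl transferase that splits extracellular glutathione, was at -2.94 and -4.04 in the colon (-1.10) and at -3.56 and -5.57 in the rectum (-2.01). With the normexp background model both shrank to differences of -0.28 and -0.28 for Wdr17 and of -0.62 and -0.45 for Ggt1. Other genes were lower in both tissues but not past 2-fold in both. Tatdn2, a nuclease of the TatD family, was at 0.07 and -1.12 in the colon (-1.19) and at 0.40 and -0.49 in the rectum (-0.90). Mpst, a sulfurtransferase that makes hydrogen sulfide, was at 3.27 and 2.23 in the colon (-1.04) and at 2.18 and 1.38 in the rectum (-0.80). Kif1c, a kinesin motor, differed by -1.32 and -0.80, but its other probe gave 0.21 and 0.24. The cytokine gene Il1b was at -3.77 and -4.49 in the colon (-0.71) and at -2.65 and -3.97 in the rectum (-1.32). The chemokine gene Ccl4 was dim, at -4.54 and -5.36 in the colon (-0.82) and at -4.72 and -5.55 in the rectum (-0.84).

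S100g, the calcium-binding protein calbindin-D9k that is induced by vitamin D, was lower in every pair. It was at -0.58 in control colon and -3.10 in stressed colon (-2.52, 5.74-fold lower) and at 3.00 and 2.32 in the rectum (-0.68), and normexp gave -1.91 and -0.70. The IL18ko pairs gave -0.48 and -2.67 in the colon (-2.20) and 1.98 and 1.57 in the rectum (-0.41). The rectum thus held far more S100g than the colon on every array, and the colon the larger difference. Nts, the gut hormone neurotensin, was at 2.15 and 0.98 in the colon (-1.16) and at -4.67 and -5.31 in the rectum (-0.63), and differed by -1.18 and -0.18 in IL18ko colon and rectum. Dbp, an output gene of the circadian clock, was higher in all 4 pairs, by 0.40 in WT colon, 1.27 in WT rectum (1.21 to 2.48), 0.31 in IL18ko colon and 0.76 in IL18ko rectum. Foxq1, a forkhead factor, differed by 0.69 and 0.89 in WT colon and rectum. Grin2d, a glutamate receptor subunit, differed by 0.53 and 0.84, and Rusc1, an adaptor protein, by 0.68 and 0.74, with 0.27 and -0.04 on its other probe.

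In the fit over both tissues (limma, tissue as a block, 4 arrays, 1 residual degree of freedom), 55 of 23846 probes (0.231%) passed an adjusted p of 0.05, 26 higher and 29 lower. With so little freedom the error is a variance that follows level and is shared by probes of like level. A probe far from 0 in 1 tissue alone can therefore pass, as Tgm4 did (limma adjusted p = 3.03e-07). The mean difference was 3.39 ± 0.31 (SE) for Myh8 (limma adjusted p = 3.71e-23), 3.19 ± 0.31 for Tnnc2 (5.98e-21) and 2.64 ± 0.30 for Tnni2 (2.63e-14). Tfap2e (1.24 ± 0.27, 3.75e-03), S100g (-1.60 ± 0.30, 1.01e-04), Wdr17 (-1.90 ± 0.35, 1.01e-04) and Ggt1 (-1.55 ± 0.34, 4.98e-03) also passed, as did Tcap, Pgam2, Actn3 and Adam2 (4.29e-07 to 2.57e-03). Most of these genes were picked for the size of the same differences, so that the fit is no separate evidence for them. Mpst, Tatdn2, Kif1c, Il1b, Nts, Dbp and Foxq1 did not, with adjusted p from 0.175 to 0.907. All calls rest on the shared variance. When the spread was taken from all 8 arrays no probe passed (662 at an unadjusted p under 0.05, lowest adjusted p 0.89), and none passed without the tissue block (36 at an unadjusted p under 0.05). The stress effect of WT minus that of IL18ko mice passed for 0 of 23556 probes (limma, 284 at an unadjusted p under 0.05). For Myh8 that difference was 4.27 ± 1.07 and for S100g -0.30 ± 0.76. On simulated data the fit between genotypes found 5% of changes of 1 and 61% of changes of 2 on the log2 scale. Its 0 calls therefore do not show that the stress effects were alike.

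**Figure D4:**
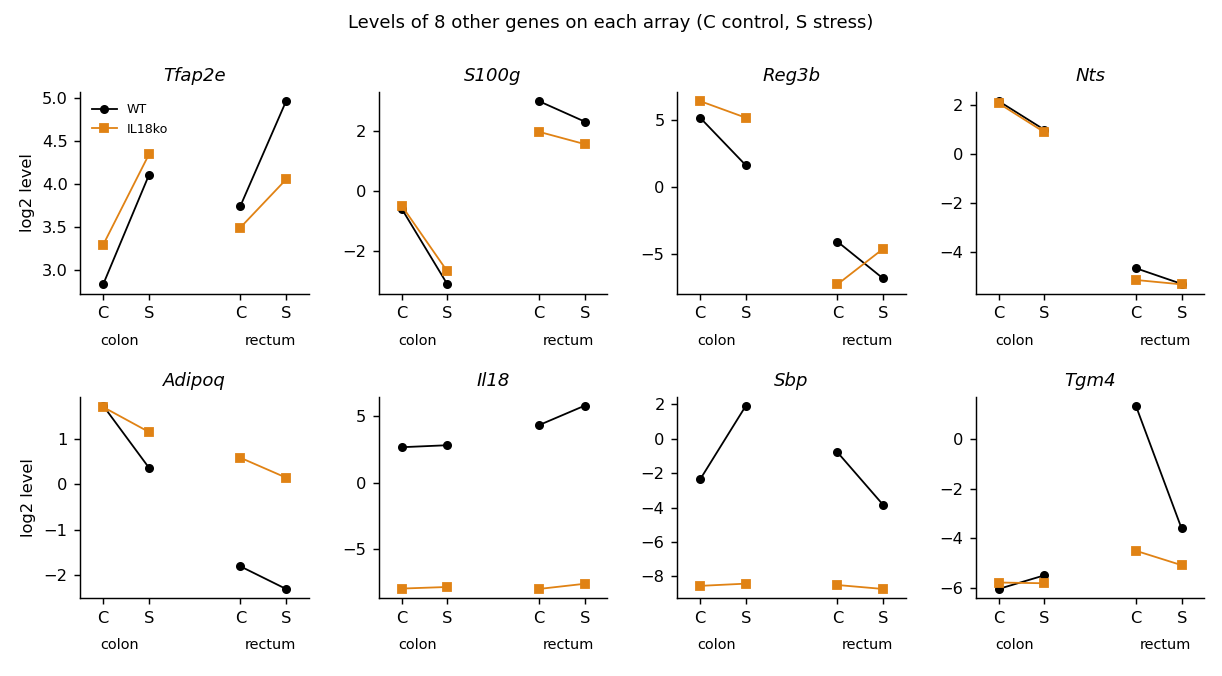
Log2 level of Tfap2e, S100g, Reg3b, Nts, Adipoq, Il18, Sbp and Tgm4 on each of the 8 arrays (C control, S stress; colon left and rectum right in each panel), 1 pool per point, WT as black circles and IL18ko as orange squares. Tfap2e climbs and S100g descends in all 4 pairs, Sbp crosses between the WT tissues, and Il18 is at background in IL18ko.

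Opposite differences were led by Sbp, the spermine-binding protein of the prostate. It was at -2.36 and 1.92 in the colon (4.28, 19.4-fold higher) and at -0.78 and -3.84 in the rectum (-3.05, 8.30-fold lower), and was not well above background in IL18ko mice. With normexp its values were 3.88 and -2.05. Other genes of male accessory glands differed in the rectum. Tgm4, the prostate transglutaminase, was at 1.34 in control rectum and -3.61 in stressed rectum (-4.94, 30.8-fold lower, and -4.01 with normexp), against -6.05 and -5.50 in the colon. Pbsn, probasin, was well above background only in control rectum, at -2.11, at least 15.2-fold above the floor of the stress array. Svs5 and Svs4, seminal vesicle proteins, were instead higher in stressed rectum, by 2.28 and 1.58. Of 13 gland genes on the array, 3 were measured in the colon and 4 in the rectum, and the mean level of the list was -6.33 and -5.97 in WT control and stress colon and -4.33 and -4.71 in WT control and stress rectum, against -7.89 to -5.80 in IL18ko mice. The part of such tissue in other differences was not tested.

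The remaining opposite genes were of mixed kinds. Pi16, a peptidase inhibitor of fibroblasts, was at -2.82 and -1.63 in the colon (1.19) and at 1.30 and 0.27 in the rectum (-1.03). The dim genes Olfr1410 (an olfactory receptor), Abcg4 (a sterol transporter), Kcnn1 (a calcium-activated potassium channel) and Sptb (erythroid spectrin) were higher in the colon by 1.14 to 2.04 and differed in the rectum by -2.51 to -1.31. Lower in the colon and higher in the rectum were Treml4, a myeloid receptor (-2.22 and 1.29), and Myh1, the IIX myosin heavy chain, at -2.89 and -5.58 in the colon (-2.69) and -4.20 and 0.36 in the rectum (4.57). The other Myh1 probe was not well above background on any WT array. Just short of 2-fold were Nfkbiz, an inducible regulator of NF-kappaB, at 1.87 and 0.91 in the colon (-0.95) and 0.71 and 1.70 in the rectum (0.99), and Slc10a2, the bile acid uptake carrier, at 0.29 and -1.44 in the colon (-1.73) and -1.40 and -0.53 in the rectum (0.87). The other Slc10a2 probe gave -1.50 and 0.02.

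In the colon the lower genes included antimicrobial lectins, fat genes and drug-metabolising enzymes. Reg3b, a secreted lectin that binds bacteria, was at 5.19 in control and 1.64 in stressed colon (-3.56, 11.8-fold lower), and its relative Reg3g at 1.88 and 0.06 (-1.82). In IL18ko colon both were lower under stress too, by -1.24 and -1.19, with Reg3b still at 5.19 after stress. Among 14 measured antimicrobial genes, 3 were past 2-fold lower (Reg3b, Reg3g and the defensin Defb37, -1.03) and the median was -0.14. Of all measured colon genes 0.684% were past 2-fold lower. Zg16 (0.11), Ang4 (-0.13), Retnlb (-0.06) and Lypd8 (0.19), other secreted defence proteins of the colon, lay near 0.

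Adipocyte genes were lower in the colon together. Retn (resistin) was at -0.76 and -2.20 (-1.44, and -1.13 on another probe), Adipoq (adiponectin) at 1.74 and 0.37 (-1.37), Fabp4 (a fatty acid carrier) at 4.77 and 3.40 (-1.37, and -1.33 and -1.32 on other probes), and Thrsp, a regulator of lipogenesis, differed by -1.05. Cfd, the adipsin of fat cells, was at 4.16 and 3.19 (-0.97). Of 13 measured genes of the list 4 were past 2-fold lower, against 0.684% of all measured colon genes, and none higher. The list median was -0.69, against 0.22 in the rectum. The mean level of the list was 1.14 in control colon and 0.45 in stressed colon, and -0.92 and -0.66 in the rectum. Fat is no part of the epithelium, and its part in other colon differences was not tested.

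Cyp3a44, a cytochrome P450 of drug and steroid oxidation, was at -1.16 and -3.93 in the colon (-2.77, and -2.29 on another probe), and Cyp2e1, a P450 of small solvents, at -0.71 and -2.24 (-1.52). In the xenobiotic list 3 of 21 measured genes were past 2-fold lower, against 0.684% of all measured colon genes. The other 18 lay within 2-fold, 9 of the 21 lay above 0, and the list median was -0.07. Other lower colon genes were Cd36, a fatty acid receptor (-1.39), Hp, haptoglobin (-1.15), Ubd, a ubiquitin-like protein induced by interferon (-1.12), and the chemokine-list gene Ptgs2, the inducible cyclooxygenase (-1.07, and -0.48 on another probe). The chemokine and cytokine list had a median of -0.50 over 12 measured genes, with Ccl2 at -0.89 and Ccl20 at -0.81. The largest differences below 0 were mostly of dim genes. Acsbg1, an acyl-CoA synthetase, was at -2.13 and -5.79 (-3.67) and differed by 0.04 in the rectum. On every array but WT control colon, IL18ko included, it lay at -5.79 to -4.15. The genes 1700001C19Rik, Plagl1, Col4a5, Ifna1, Gfra1, Rragb and Klhl11 differed by -3.31 to -2.74, with -0.13 on the other probe of Gfra1. They too were high on the WT control colon array alone, at -3.23 to -2.05. On every other array, IL18ko included, they lay at -7.49 to -4.57.

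Higher genes in the colon were few and dim. After the muscle genes and Sbp came genes such as Prl8a8 (3.33), Cacng8 (3.06), Slc35g3 (2.68) and Mgat5b (2.53). These were high on the WT stress colon array alone, at -2.52 to -1.86. On every other array, IL18ko included, they lay at -8.79 to -3.39. Laptm5, a lysosomal protein of leukocytes, differed by 2.16 on one probe and 0.23 on another. Only 4 genes with a level of at least -2 were past 2-fold higher, namely Tfap2e, Tnni2, Sbp and Phf12, a chromatin protein (1.13, and 0.11 on another probe).

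In the rectum the lower genes included smooth muscle and sterol synthesis. Myh11, the smooth muscle myosin heavy chain, was at 5.13 and 3.79 (-1.33), Tpm2 (beta-tropomyosin) at 5.93 and 4.57 (-1.36, and -1.19 on another probe), and Des (desmin) at 3.73 and 2.47 (-1.25). Tpm2 and Des, written in the skeletal list, also belong to smooth muscle and are its 2 lower genes. Hspb6, a small heat shock protein of smooth muscle, differed by -1.18 and Actg2, the enteric actin, by -0.88, but Tagln (0.00) and Cnn1 (0.02), further smooth muscle markers, lay at 0. Of 13 smooth muscle genes 3 were past 2-fold lower, against 1.33% of all measured rectal genes, and none higher. The list median was -0.61. In the colon the median was -0.18 and 0 of 13 lay above 0.

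Lss, lanosterol synthase, was at -0.06 and -1.28 in the rectum (-1.22, and -1.44 on another probe), and Cyp51, the next enzyme of the pathway, at 1.07 and -0.16 (-1.23). Further probes of Cyp51 gave 0.05 and -1.36. Of 19 measured sterol genes 3 were past 2-fold lower, against 1.33% of all measured rectal genes, and none higher. The list median was -0.24, against -0.06 in the colon. Eno2, the enolase of neurons, was at -2.01 and -4.35 (-2.34, and -1.59 on another probe) and differed by 0.06 in the colon. Net1, a RhoA exchange factor, was at 1.69 and -0.35 (-2.04). Fkbp5, a co-chaperone induced by glucocorticoids, was at 0.35 and -0.72 (-1.07, and -0.89 and -0.27 on other probes). Zfp260, at -1.55 and -5.41 (-3.86), had -0.32 on its other probe, and Itgam, the integrin CD11b of myeloid cells, was at -1.76 and -5.44 (-3.68). Both were high on the WT control rectum array alone. Every other array, IL18ko included, lay at -5.41 to -4.39 for Zfp260 and at -5.94 to -5.39 for Itgam.

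Among higher genes of the rectum were some of vessels, stroma and macrophages. Flt1, a receptor for vascular endothelial growth factor, was at -1.10 and 0.55 (1.66, and 1.42 on another probe), and Cdh5, the cadherin of endothelium, was past 2-fold on one probe and at 0.87 on another. Cxcl12, a stromal chemokine, was at -0.82 and 1.02 (1.85, and 0.61 on another probe) and differed by -0.44 in the colon. Col1a1, a chain of collagen I, was at 2.74 and 4.06 (1.32), but another measured probe gave 0.08. Of 18 fibroblast and endothelial genes 3 were past 2-fold higher in the rectum, against 2.34% of all measured rectal genes, and none lower. The list median was 0.51 in the rectum and -0.16 in the colon. In IL18ko mice the medians of these genes had the opposite signs, -0.26 in the rectum and 0.65 in the colon.

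Adamdec1, a protease of gut stroma and macrophages, was at 3.71 and 5.31 (1.60) and differed by -0.58 in the colon. The macrophage markers Adgre1 (-0.50 and 0.82, 1.32) and Ccr2 (1.22) were past 2-fold higher. Itgam was lower, from a level in WT control rectum that no other array came near. The median of 15 macrophage genes was 0.80 in the rectum and -0.12 in the colon. In IL18ko mice these signs were turned, with macrophage medians of 0.73 in the colon and -0.31 in the rectum. Junb, an immediate early AP-1 factor, was at 4.99 and 6.24 (1.25, and 1.54 on another probe) and Fos, its partner, at 1.08 and 2.23 (1.14), with a list median of 0.44 against 0.03 in the colon. Axin2, a target of Wnt signals in crypts, differed by 1.26. The list medians of 13 stem cell and Wnt genes (0.36) and of 20 cell cycle genes (0.35) were also above 0 in the rectum. Each list had 1 gene past 2-fold higher, against 2.34% of all measured rectal genes. Below 0 there lay 4 of the 13 and 8 of the 20. The colon medians were 0.19 and -0.16.

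Il18 was among the bright genes of the rectum, at 4.34 in control and 5.81 under stress (1.46, 2.76-fold), against 2.68 and 2.83 in the colon (0.15), and did not pass the fit over both tissues (limma adjusted p = 0.552). With quantile normalization the rectal value was 1.23. Its list, which also holds its receptor, its binding protein and inflammasome genes, had medians of 0.08 over 13 genes in the colon and -0.01 over 12 in the rectum, Il18 included. None was past 2-fold in the colon, and in the rectum Il18 was higher and Il1b lower. Of all measured genes 1.08% in the colon and 3.68% in the rectum were past 2-fold. The genes most above control in the rectum were the muscle genes Mb, Myh1 and Myl3, followed by genes such as Slc17a8, a glutamate carrier (3.24), Ccm2l, a vascular protein (2.65), and the brighter Slc35e3, a member of a family of solute carriers, at 1.79 and 4.04 (2.26).

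Glucocorticoid-responsive genes were seldom past 2-fold, as were all measured genes (1.08% in the colon and 3.68% in the rectum). Of 17 measured genes in each tissue none was past 2-fold in the colon, with a median of 0.11. Fkbp5 alone was past 2-fold in the rectum, where it was lower and the median was 0.25. In each tissue 12 of the 17 genes lay above 0. The medians lay above 70.45% of all measured genes in the colon and 66.03% in the rectum. The list was bright, with mean levels of 2.14 and 2.21 in WT control and stress rectum. All rectal genes at levels of 2 to 4 had a median of 0.15, and the part of level in the list's rank was not tested. Per1, a clock gene that glucocorticoids induce, differed by 0.60 in the colon and 0.44 in the rectum, Sgk1, a kinase that promotes sodium uptake, by 0.70 in the rectum, and Tsc22d3, the leucine zipper GILZ, by -0.64 and -0.56 there on separate probes. Interferon-stimulated genes had medians of 0.03 and 0.02 in colon and rectum, goblet cell genes 0.07 and -0.02, absorptive cell genes 0.08 and -0.12, and junction genes 0.05 and 0.10. Klk1, tissue kallikrein, was among the brightest genes, at 6.06 and 6.15 in the colon (0.09) and at 5.52 and 5.06 in the rectum (-0.46), with 0.07 and -0.48 on another probe. Over 36 lists, 30 medians in the colon and 21 in the rectum lay within 0.25 of 0, and 20 lists had opposite signs in the tissues.

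**Figure D5:**
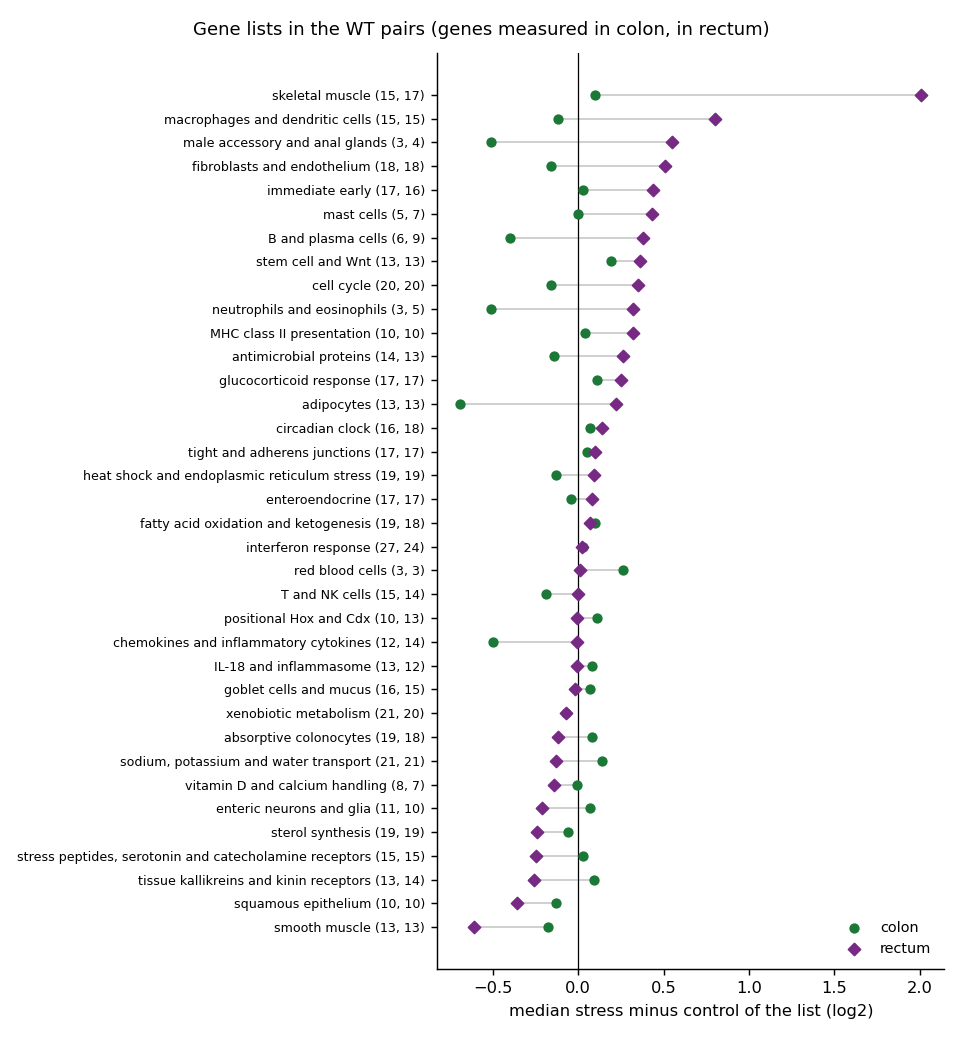
Median stress minus control (log2) of each of 36 gene lists in WT colon (green circles) and WT rectum (purple diamonds), with the number of genes measured in each tissue beside the list's name and a grey line joining both medians. Skeletal muscle genes stand far right in the rectum at 2.01, smooth muscle at -0.61 in the rectum, and adipocyte genes at -0.69 in the colon.

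Further genes were well above background on 1 array of a pair alone and have only a bound. In the colon 381 genes were so under stress and 193 in control, of which 67 and 99 were past 2-fold by the bound. Behind Myh4 stood Olfr1411, an olfactory receptor (at least 18.3-fold higher), and Hoxc9, a homeobox gene (16.1-fold), and on the lower side Klk15, a kallikrein (at least 23.6-fold lower), Onecut1, a liver and pancreas transcription factor (23.5-fold), and Olfr1364 (18.9-fold). In the rectum 249 genes were so under stress and 275 in control, with 50 and 85 past 2-fold. Behind Gria4, a glutamate receptor subunit, Rhox6, a homeobox gene, was at least 14.1-fold higher and Tmem215 at least 11.6-fold, and after Pbsn came Gm5622 (at least 11.9-fold lower) and Gm4861 (11.8-fold).

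The IL18ko pairs, which took no part in the choice of these genes, gave the same sign as WT for 27 of 39 higher and 44 of 75 lower colon genes measured in both, against 45.8% of all 12217 genes. In the rectum they gave it for 45 of 282 higher (16.0%) and 37 of 155 lower genes (23.9%), against 32.4% of all 12091. Each tissue's 4 arrays share a slide, and WT control and WT stress took the same slots on both slides, so that slot and housing cannot be told apart.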

How the data were processed

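Agilent 44k 1-colour arrays of 8 pools were used, 4 of them WT. Per the file headers, the deposited scanner files give intensity from Feature Extraction 9.5.1.1 (processed, background-subtracted signals). A second deposited file per array holds the authors' ratio to WT control colon. How the authors made these ratios beyond the labels' division is not given in the sources used here. They matched the scanner values at r 0.9949 to 0.9997. Here log2 of the deposited processed signal was taken, minus each array's 75th percentile, without control spots and outliers (40963 probes). Names came from RefSeq accessions (22857 probes, 16309 genes), and 18106 probes stayed unnamed. Measured means well above background on both arrays. Fits used limma 3.58.1 in R 4.3.3, Benjamini-Hochberg adjusted, probes above background on all arrays fitted, tested on simulated data. Named were, per tissue and direction, the 10 largest differences past 2-fold, 8 shared and 6 opposite per pattern, 3 per bound, list examples and 13 fixed genes. The members and lists were chosen with earlier results of these data known. A few genes within that rule are not reported here. Genes outside it, such as bright ones, were chosen after their values were seen. Tables used Python 3.11.15 and pandas 2.3.3. Alternatives were scaling, background model (normexp, offset 50, on the median signal), the deposited ratios, filters and thresholds. With 1 array per group, precision is limited to the spot errors.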

Additional observations from a re-analysis of the deposited data

Results flagged for a closer look

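In these 8 genes the WT tissues differed past 2-fold in opposite ways, 1 array per group, and the difference between tissues was not tested. Sbp differed by 4.28 in the colon and -3.05 in the rectum, Olfr1410 by 2.04 and -1.47, Abcg4 by 1.70 and -1.35, Pi16 by 1.19 and -1.03, Kcnn1 by 1.17 and -2.51, and Sptb by 1.14 and -1.31. Treml4 differed by -2.22 and 1.29 and Myh1 by -2.69 and 4.57. They are 0.0672% of 11904 genes.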

How the results depend on the processing

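Counts past 2-fold stayed within 1.5 times of the main ones (colon 134, rectum 447, shared 10, opposite 8) with median scaling, quantile normalization and the mean of all probes. With normexp background they were 40, 149, 4 and 2, the 4 shared genes being Myh8, Tnnc2, Tnni2 and Tfap2e. There the rectum split was 122 higher and 27 lower, and limma gave 50 and 12 (62 calls). With the deposited ratios the colon had 35, shared 6 and opposite 2, limma had 9 calls, and the rectum had 299, split 101 higher and 198 lower against 285 and 162. A common floor for dim arrays gave 243 in the colon, 20 shared and 16 opposite, and genes above background on all 8 arrays gave 86 in the colon. At 1.5-fold the counts were 456, 2751, 50 and 67. Among alternatives chosen after seeing the data, a level of at least -2 gave 23, 224, 4 and 2, and a second probe also past 2-fold left 4 in the colon and 22 in the rectum. The limma count of 55 was 139 with probes above background on at least 2 of 4 arrays and 69 without a variance that follows level. It was 0 with the spread of all 8 arrays and 0 without the tissue block. Counted as reversed were Reg3b in the rectum (0.00 in the deposited ratios against -2.75, with stress not above background) and Gfra1 in the rectum (0.04 with normexp against -1.32). In both the alternative value lay near 0, so the difference was lost rather than turned. Of 427 gene values 341 kept size and direction, 84 moved in size and these 2 were counted as reversed, and of 280 list medians 264 kept and 16 moved. The cause of these differences was not tested. Arrays could not be paired by mouse or replicate, because each group has 1 array and the labels give no replicate numbers. The tissue block of the limma fit paired stress with control by tissue only. With 1 array per group no replicate could be left out. Dim genes limit the depth: most colon calls lie under a level of -2.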

Other observations

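Of the probes without a gene name, 151 of 7929 measured were past 2-fold in the colon, 497 of 7482 in the rectum and 3 of 7189 past 2-fold the same way in both tissues.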
